A study of Homo sapiens with 27 samples.

Results

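The genes described here are the nuclear genes for subunits of the oxidative phosphorylation (OXPHOS) complexes, that is complexes I, III and IV of the respiratory chain and the ATP synthase (complex V). They were picked out by a rule on names, as the protein-coding rows of the count table whose symbol starts with NDUFA, NDUFB, NDUFC, NDUFS or NDUFV and a digit, with UQCR, with COX4 to COX8, or with ATP5F, ATP5M or ATP5P. This gave 84 of 61533 genes, of which 37 belong to complex I, 9 to complex III, 19 to complex IV (with NDUFA4 and its paralogue NDUFA4L2) and 19 to complex V. The names also bring in the readthrough genes NDUFC2-KCTD14 and ATP5MF-PTCD1 and the retrocopies UQCRHL and ATP5MGL. The RNA came from 92.1, an established uveal melanoma cell line with a GNAQ mutation. Its cultures were kept for 21 days in 100 nM VS-4718, an inhibitor of focal adhesion kinase (FAKi), or in the solvent DMSO, with medium and treatment renewed every 72 h. The 27 libraries form 9 groups of 3 replicates. A single group is the DMSO culture of day 0, and the others are a DMSO and a FAKi group each for days 3, 7, 14 and 21. All of them are bulk libraries of a single line, and the study compared the treatments to follow how these cells adapt to the inhibitor. The methods speak both of triplicate plating and of repeated experiments, and the labels do not say which of these a replicate number counts, so p-values measure only the spread between these libraries.

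Complex I takes electrons from NADH, complex III passes them from ubiquinol to cytochrome c, and complex IV hands them to oxygen. Complexes I, III and IV pump protons across the inner mitochondrial membrane as they do so, and complex V lets the protons back through its rotating ring of c subunits to make ATP. Each complex is a mosaic: a few subunits come from the mitochondrial chromosome, and all the others from nuclear genes spread over many chromosomes, here over 22 of them with 12 on chromosome 19. The nuclear genes are known for promoters without a TATA box that bind NRF1, ETS factors such as GABPA, and YY1, and are known to be transcribed together when cells make more mitochondria. Several subunits exist as alternative isoforms, and the choice among them is known to follow the tissue or the oxygen supply.

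The promoters are shown because most of these genes went in the same direction in the comparisons that use DMSO at day 21. At days 7 and 14 their directions were mixed, and a part of the promoters in this was not tested. RefSeq promoter sequences (GRCh38.p14, 250 bases before to 50 after the start) were at hand for 66 of the 84 genes. Within these 300 bases on either strand, the NRF1 motif TGCGCANGC was found in 13 of the 66 (19.7%), against 5.28% of the 27305 genes with a sequence. The ETS motif CCGGAAG was found in 19 (28.8%, against 12.2%), the YY1 motif AAGATGGC in 11 (16.7%, against 3.52%) and the motif of the estrogen-related receptor TCAAGGTCA in 0, against 0.432%. At least 1 of these motifs stood in 53.0% of the OXPHOS promoters and in 19.1% of all. That background holds every gene with a promoter sequence, coding or not and expressed here or not, and was not matched to the OXPHOS genes. The bases below run 5′ to 3′ for 150 positions up to the start of each gene, and capitals mark the motifs. COX5B (chr2:97645912-97646061, + strand) holds an NRF1 and an ETS motif, and COX8A (chr11:63974470-63974619, + strand) holds an ETS motif in the other orientation.
COX5B: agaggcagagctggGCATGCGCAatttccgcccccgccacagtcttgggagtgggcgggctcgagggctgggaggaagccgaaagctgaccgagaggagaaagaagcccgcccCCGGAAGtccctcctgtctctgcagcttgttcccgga
COX8A: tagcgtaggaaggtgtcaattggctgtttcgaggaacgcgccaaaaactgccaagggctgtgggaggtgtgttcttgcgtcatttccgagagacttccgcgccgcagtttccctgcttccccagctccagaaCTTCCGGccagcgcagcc
These are matches of letters and say nothing of binding. Of the genes that were lower with FAKi at day 21, 20 had a promoter sequence and 10 of these held at least 1 motif, and of the other 46 promoters 25 did.

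Total counts per library ran from 12161994 to 43651551, and the OXPHOS genes took between 0.54% and 1.38% of them. Levels are counts scaled to CPM (counts relative to the library total), with TMM factors over the 27 libraries, and a floor of 3 counts corresponds to 0.245 CPM in the smallest library and covers counting error only. Of 9 melanocyte markers 8 stood above 10 CPM on average, and of 19 markers of fibroblasts, immune, endothelial and epithelial cells 14 stayed under 1 CPM in every library. By the distance over 21992 genes, 11 of the 27 libraries were nearest to a library of another group. The library labelled FAKi day 7 replicate 1 was nearest to FAKi day 14 replicate 1, DMSO day 3 replicate 1 to DMSO day 0 replicate 3, and DMSO day 3 replicates 2 and 3 to DMSO day 21 replicate 3, whose own nearest library was DMSO day 3 replicate 3. In the count column of this last library the day is spelled 721, while its title gives day 21. Counts of passing genes are also given without DMSO day 3 replicate 1 or 3, FAKi day 7 replicate 1 or DMSO day 21 replicate 3. Medians are given for a part of these fits. Levels, ratios and the values of single genes hold all libraries unless stated.

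Nearly every OXPHOS gene was expressed, and the exceptions were isoforms known from other tissues. Of the 84 genes 78 had a mean of at least 1 CPM. COX4I2 (the lung isoform of subunit 4) and COX7B2 (a testis isoform) had 0 counts in all 27 libraries, which allows up to 0.00446 CPM over the series. COX7A1, the heart and muscle isoform of subunit 7A, had 9 counts in all, COX6B2 of testis had 23 and COX8C of testis had 58. COX6A2, the heart and muscle isoform of subunit 6A, was found with 547 counts, and its level per kilobase stayed between 0.0725% and 1.48% of that of COX6A1. These libraries therefore carried COX4I1, COX6A1, COX6B1, COX7A2, COX7B and COX8A as the main forms of those subunits.

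Compared per kilobase of exon, the highest levels belonged to subunits of 3 different complexes. UQCRB, a complex III subunit next to the ubiquinone site, had 495 CPM per kilobase. COX8A, the smallest nuclear subunit of complex IV, had 304, and ATP5F1B, the catalytic beta subunit of the ATP synthase, had 292. The lowest of the 78 were ATP5MGL with 3.88 and NDUFA9 with 4.51 CPM per kilobase. The median was 43.2 for the complex I genes, 63.1 for complex III, 152 for complex IV and 100 for complex V, on the exon length of the 1 transcript that was counted for each gene. Over the 27 libraries, NDUFA4L2 varied most, with an SD of 1.25 on the log2 CPM scale, followed by ATP5MGL with 1.21 and NDUFB2, an accessory subunit of the membrane arm of complex I, with 0.76. NDUFA10 (0.16) and NDUFS1 (0.17), a core subunit that carries electrons from NADH towards ubiquinone, were among those that varied least.

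Some members share exon bases or sequence with other genes, so a part of their reads may not be told apart. In GENCODE 44, 27 of the 84 share exon bases with a gene on the same strand and 45 have pseudogenes named after them, 173 in all. These are counts of overlaps and of names, and how many reads they affect was not measured. The clearest case is UQCRH, which encodes the acidic hinge protein of complex III, on chr1:46303709-46316776, and its retrocopy UQCRHL on chr1:15807169-15809348. Their coding sequences of 276 bases differ at 4 positions and are 98.6% identical. They are shown with the differing bases in capitals.
UQCRH: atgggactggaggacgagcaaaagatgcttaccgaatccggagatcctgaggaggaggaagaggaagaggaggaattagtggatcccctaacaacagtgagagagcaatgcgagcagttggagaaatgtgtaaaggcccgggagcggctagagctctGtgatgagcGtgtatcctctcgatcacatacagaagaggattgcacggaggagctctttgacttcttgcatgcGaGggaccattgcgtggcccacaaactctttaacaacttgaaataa
UQCRHL: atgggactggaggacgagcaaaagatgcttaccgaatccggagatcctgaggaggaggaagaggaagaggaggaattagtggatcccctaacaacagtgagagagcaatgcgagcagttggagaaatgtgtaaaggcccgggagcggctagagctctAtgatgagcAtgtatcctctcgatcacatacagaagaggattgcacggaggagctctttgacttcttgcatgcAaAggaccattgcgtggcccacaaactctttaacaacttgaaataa
The level of UQCRHL per kilobase was between 15.7% and 48.7% of that of UQCRH, and the split of reads between them is uncertain.

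The summed level of the 84 genes was alike in most libraries and stood out in DMSO at day 21. At day 0 it was 6674, 6642 and 6078 CPM in the 3 DMSO replicates. In DMSO at day 21 it was 15908, 15622 and 8532 CPM, so that replicates 1 and 2 lay far above replicate 3. In FAKi at day 21 it was 8367, 7573 and 6547 CPM, and FAKi at day 21 was not tested against day 0. Replicate 3 of DMSO at day 21 was close to the highest FAKi library of that day. In the other 21 libraries the sum stayed between 5805 and 9577 CPM, with the upper end in DMSO day 3 replicate 3. Of the 78 genes with at least 1 CPM, 69 had their 2 highest levels in DMSO day 21 replicates 1 and 2. In bulk libraries a lower level in each cell and fewer cells with the transcript cannot be told apart. The share of counts from the mitochondrial chromosome went the other way: 5.5%, 5.5% and 9.7% in DMSO at day 21, between 10.7% and 11.2% in FAKi at day 21, 8.6% and 9.6% in DMSO day 3 replicates 3 and 2, and between 16.8% and 26.97% in all others. Its part in the differences of the OXPHOS genes was not tested, beyond a fit whose library sizes left those counts out.

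**Figure D1:**
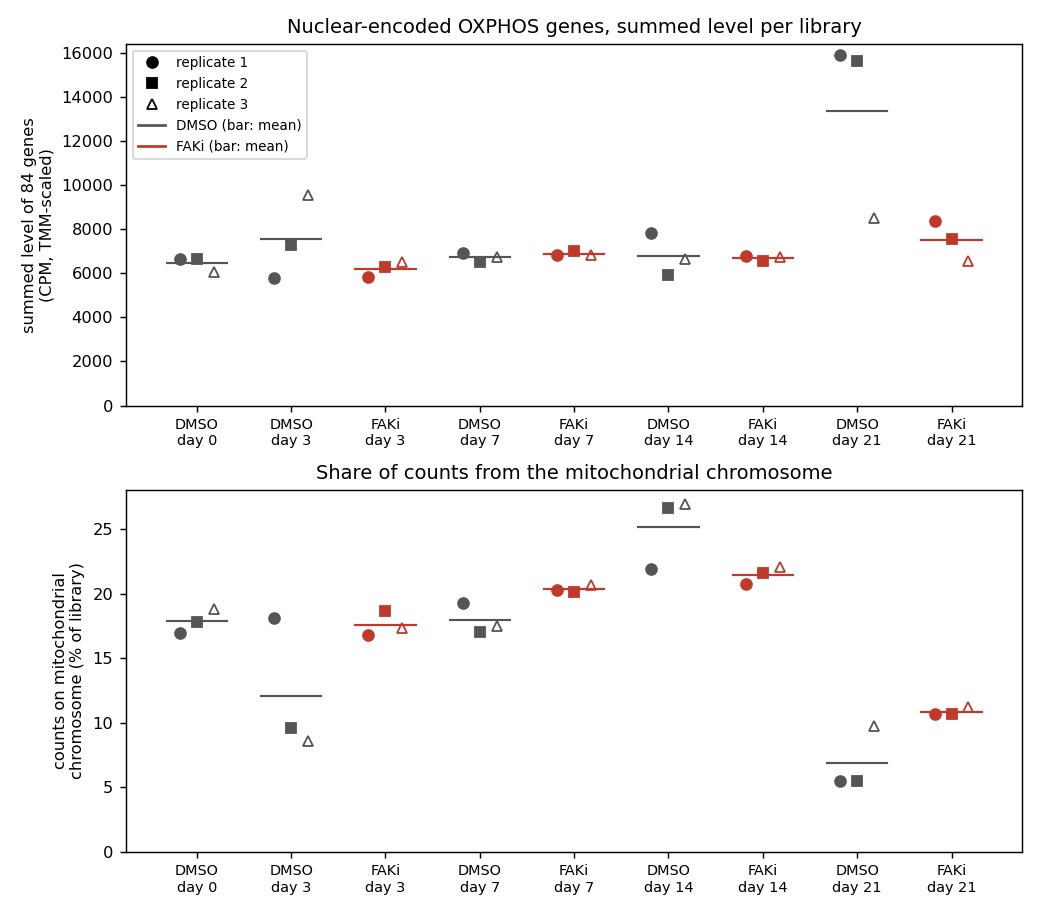
Each point is 1 library, in 9 groups along the x axis. The upper panel gives the summed level of the 84 OXPHOS genes in TMM-scaled CPM and the lower panel the percentage of counts on the mitochondrial chromosome. Bars are group means. DMSO day 21 replicates 1 and 2, at 15908 and 15622 CPM, stand above the rest and have the lowest mitochondrial share.

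In the control cultures the OXPHOS genes rose between day 0 and day 21. Of 79 genes tested 67 passed (adjusted p at most 0.05) and 67 were higher, against 44.9% of all 22259 genes passing and 24.1% passing as higher. The median log2 fold change was 1.11, and 0.03 over all genes. Past a log2 fold change of 1 as well were 47 genes, where the background was 13.2%. With a correction for length and GC content of the transcripts these were 25 (23 with a replicate block as well), and the median was 0.66. The background of 13.2% belongs to the fit without the correction, and the share past both thresholds was not counted in the corrected fits. In 61 genes every day 21 library lay above every day 0 library, against 29.8% of all genes. The rise was seen in each complex: 32 of 37 genes of complex I passed with a median of 1.11, 8 of 9 of complex III with 0.88, 11 of 14 of complex IV with 1.31 and 16 of 19 of complex V with 1.06. NDUFA4 rose from 52.9, 45.6 and 52.2 CPM at day 0 to 154, 140 and 103 CPM (log2 fold change 1.39, SE 0.17, adjusted p = 0.00162). COX7C, a small membrane subunit of complex IV, rose by 1.89 (SE 0.26, adjusted p = 0.00239) and COX5A, which faces the matrix in the same complex, by 1.65 (SE 0.23, adjusted p = 0.00229). In complex V, ATP5MC2 of the c ring rose by 1.46 (SE 0.19) and ATP5PB of the peripheral stalk by 1.06 (SE 0.15), with adjusted p-values of 0.00194 and 0.00248. Among the genes that did not pass were NDUFS1 at -0.22 (SE 0.13, adjusted p = 0.182), NDUFA10 at 0.09, NDUFA5 at 0.03, UQCRB at -0.07, ATP5MF-PTCD1 at -0.01 and COX7A2L at 0.29. NDUFS1 had 77.8, 71.2 and 71.2 CPM at day 0 and 57.6, 61.5 and 70.1 at day 21. Over all 5 days of DMSO, 73 of 80 genes varied (edgeR F test, adjusted p at most 0.05), against 49.9% of all genes, and 33 of 79 did without the day 21 libraries, against 27.1% of all genes.

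With FAKi the OXPHOS genes were lower than with DMSO at day 21, in a comparison whose count of passing genes hung on single libraries. Of 80 genes tested 27 passed and all 27 were lower, where 11.6% of 23212 genes passed and 6.32% passed as lower. The median log2 fold change was -0.85, and 0.01 over all genes. The sign was negative for 79 of the 80. The comparison shares its DMSO libraries with that of day 21 against day 0. Of 12 genes also past a log2 fold change of -1, the background being 2.71%, 6 were in complex I, 5 in complex IV and 1 in complex V. This number was 4 with the correction for length and GC content, 3 with that correction and a replicate block, and between 0 and 48 with 1 library left out. The share of all genes past both thresholds was not counted in those fits. By the adjusted p alone it was 18.9%, 30.2% and between 0.229% and 48.5%, in the same order. In 36 genes every FAKi library lay below every DMSO library, against 18.9% of all genes. Taken by replicate number, 80 of 80 genes were lower with FAKi in replicate 1, 80 in replicate 2 and 76 in replicate 3, and the summed level with FAKi was 52.6%, 48.5% and 76.7% of that with DMSO. With the replicate as a block 68 of the 80 genes passed, all lower, where 29.9% of all genes passed. Whether the replicate numbers pair these libraries is not known.

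Complex I had 12 of 37 genes lower at day 21, with a median of -0.86. They were the core subunit NDUFS8, which holds iron-sulfur clusters, and the accessory genes NDUFA3, NDUFA5, NDUFA8, NDUFA9, NDUFB3, NDUFB5, NDUFB6, NDUFB8, NDUFB9, NDUFC2 and the readthrough NDUFC2-KCTD14. NDUFB9, of the membrane arm, had 444, 440 and 200 CPM with DMSO and 164, 145 and 124 CPM with FAKi (log2 fold change -1.26, SE 0.28, adjusted p = 0.0293). NDUFC2 had 108, 111 and 59.2 CPM against 46.5, 41.3 and 38.2 CPM (-1.09, SE 0.23, adjusted p = 0.0238). Both genes were separate between the groups, and in both DMSO replicate 3 lay nearer to FAKi than to the other DMSO libraries. NDUFA5, of the arm that reaches into the matrix, behaved otherwise: its DMSO libraries were alike at 60.5, 74.1 and 59.1 CPM, and its FAKi libraries had 41.0, 31.2 and 37.4 CPM (-0.77, SE 0.15, adjusted p = 0.0213). NDUFA9, at the joint of both arms, had a log2 fold change of -0.86 (SE 0.17, adjusted p = 0.0218), with 76.9, 75.6 and 51.8 CPM against 40.0, 36.5 and 32.1 CPM. NDUFB3 (-1.19), NDUFB6 (-1.14), NDUFS8 (-1.12) and NDUFA3 (-1.02) were also past a log2 fold change of -1, with adjusted p-values between 0.0312 and 0.0464. The largest core subunit NDUFS1 (-0.09, adjusted p = 0.658), NDUFA10 (-0.01) and NDUFV3 (-0.11) were nearest to 0 among the complex I genes described here.

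In complex III only UQCRFS1 passed at day 21 in edgeR without a block, of 9 genes with a median of -0.85. It encodes the Rieske iron-sulfur protein and had 147, 152 and 81.3 CPM with DMSO and 75.7, 65.8 and 57.8 CPM with FAKi (-0.88, SE 0.23, adjusted p = 0.0452). UQCRH (-0.89, SE 0.25, adjusted p = 0.0518), the core protein UQCRC1 (-0.71, SE 0.22, adjusted p = 0.0657) and UQCRQ (-0.85, SE 0.31, adjusted p = 0.103) had like values and did not pass in this fit. With DESeq2 7 of the 9 genes passed, where 20.6% of all genes did.

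Complex IV had 8 of 15 genes lower, with a median of -0.95: COX5B, COX6B1, COX6C, COX7A2, COX7A2L, COX7B, COX8A and NDUFA4. COX6C had the most negative log2 fold change of all members that passed, with 443, 456 and 182 CPM with DMSO and 161, 135 and 114 CPM with FAKi (-1.34, SE 0.32, adjusted p = 0.0343). COX5B, the subunit that binds zinc, had 239, 235 and 106 CPM with DMSO and 94.7, 88.6 and 71.4 CPM with FAKi (-1.13, SE 0.28, adjusted p = 0.0404). COX8A had 394, 400 and 227 CPM against 176, 165 and 143 CPM (-1.02, SE 0.22, adjusted p = 0.0249). COX7A2L, which links complexes III and IV in supercomplexes, had the smallest p of the members, with 260, 263 and 199 CPM against 145, 119 and 110 CPM (-0.89, SE 0.16, adjusted p = 0.0166). The groups were apart for each of these 4 genes. COX6B1, a subunit on the side of the intermembrane space, was at -1.17 (SE 0.29), and COX7A2 at -1.09 (SE 0.25).

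Complex V had 6 of 19 genes lower, with a median of -0.77. They were the c ring genes ATP5MC1 and ATP5MC3, the membrane subunits ATP5MF, ATP5MG and ATP5MK, and ATP5PB. ATP5PB had 154, 151 and 111 CPM with DMSO and 88.2, 75.9 and 66.9 CPM with FAKi (-0.80, SE 0.16, adjusted p = 0.0237). ATP5MK was the member of this complex past a log2 fold change of -1, with 147, 147 and 71.01 CPM against 65.1, 55.3 and 44.6 CPM (-1.09, SE 0.27, adjusted p = 0.0403). ATP5MF had 138, 131 and 83.3 CPM against 67.7, 58.9 and 53.6 CPM (-0.92, SE 0.19, adjusted p = 0.0254). The catalytic subunits ATP5F1A (-0.33, SE 0.14, adjusted p = 0.144) and ATP5F1B (-0.38, SE 0.14, adjusted p = 0.107) did not pass. ATP5F1B had 891, 838 and 769 CPM with DMSO and 670, 619 and 566 CPM with FAKi, so its libraries were separate by a smaller step.

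**Figure D2:**
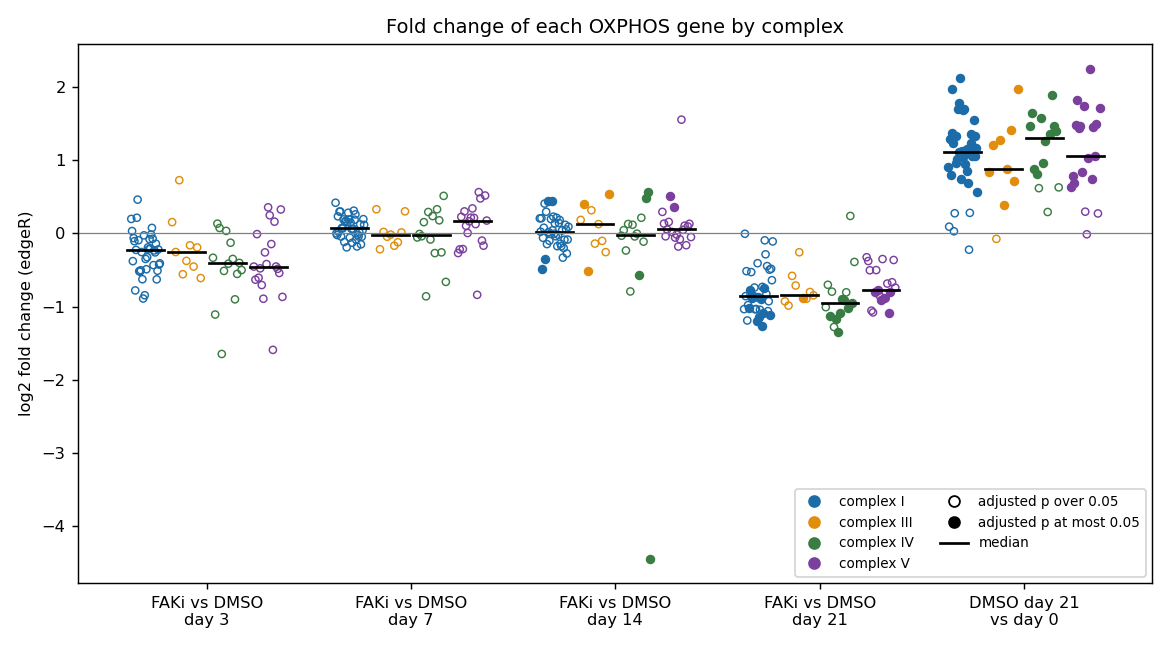
Each point is the edgeR log2 fold change (y axis) of 1 OXPHOS gene, in 4 comparisons of FAKi with DMSO and in DMSO day 21 against day 0 (x axis), coloured by complex. Filled points have an adjusted p of at most 0.05 and black lines are medians. The medians at day 21 lie between -0.95 and -0.77 and those of the DMSO comparison between 0.88 and 1.31, and NDUFA4L2 lies alone at -4.45 at day 14.

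The number of genes lower at day 21 changed with the libraries in the fit. It was 0 without DMSO replicate 1, DMSO replicate 2, FAKi replicate 2 or FAKi replicate 3, 2 without FAKi replicate 1 and 76 without DMSO replicate 3. Over all genes, the share that passed was between 0.229% and 2.18% in the first 5 of these fits and 48.5% in the last. Without DMSO replicate 3 the 76 genes were 34 of complex I, 9 of complex III, 14 of complex IV and 19 of complex V. The median log2 fold change stayed between -1.09 and -0.71 in these fits. With replicates 1 and 2 alone and a block, chosen after seeing the data, 76 of 79 genes passed, where 46.8% of all genes did. A fit corrected for length and GC content of the transcripts gave 40 genes, where 18.9% of all genes passed, and a median of -0.63. Among all genes with a mean log2 CPM over 3, the day 21 medians went with transcript length, from -0.56 over genes with up to 1000 exon bases to 0.17 over those above 5000 bases. The medians of the bins between these were -0.37 and -0.06, from the shorter to the longer. For the OXPHOS genes the 4 medians were -0.92 (34 genes), -0.71 (19 genes), -0.83 (20 genes) and -0.11 (5 genes), in the same order. They were below those of all genes in each bin. In DMSO day 21 against day 0 the 4 bins gave 1.06, 0.69, 0.04 and -0.54 for all genes and 1.23, 1.24, 1.06 and 0.09 for the OXPHOS genes. With the correction, 53 OXPHOS genes passed in DMSO day 21 against day 0, 51 higher and 2 lower, where 36.7% of all genes passed. The part of length in these results was not tested beyond that correction.

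**Figure D3:**
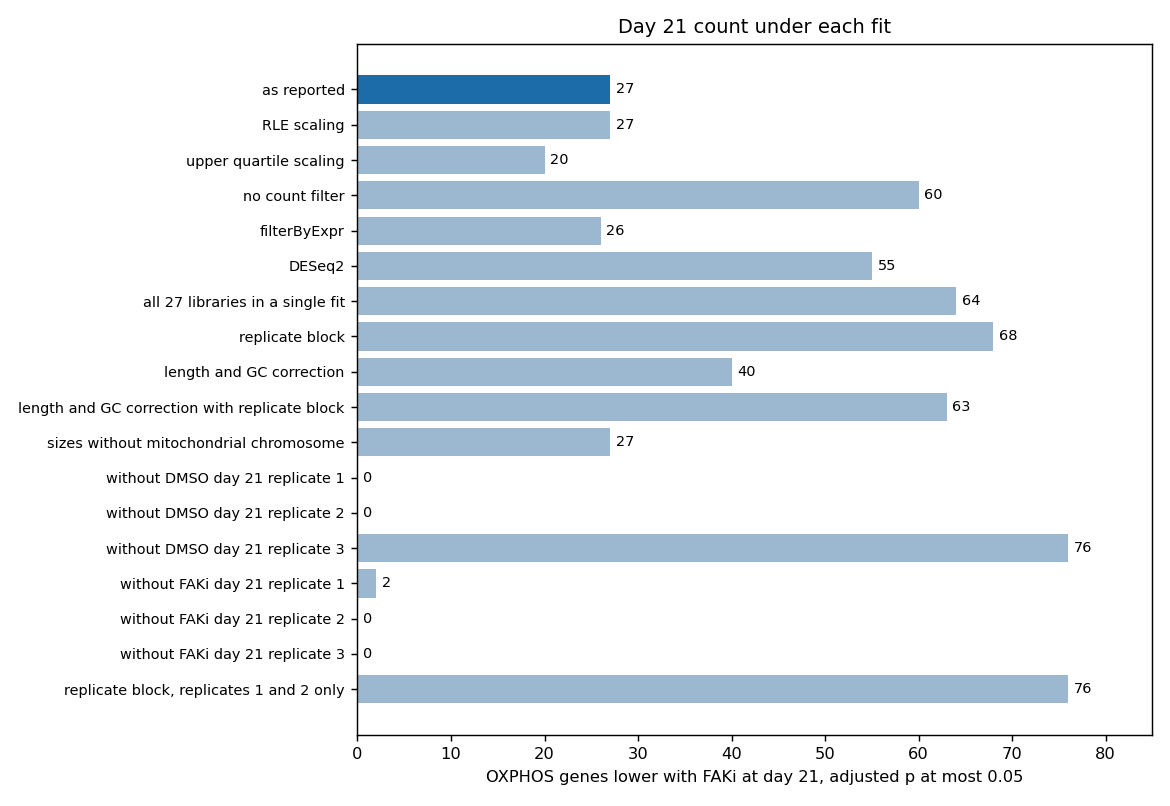
The x axis gives the number of OXPHOS genes lower with FAKi than with DMSO at day 21 at an adjusted p of at most 0.05, for each fit on the y axis, with the reported one in dark blue. Leaving out 1 library gives between 0 and 76 genes, and the replicate block gives 68.

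At day 3, 0 of 79 OXPHOS genes passed in edgeR, as did 0 of 22846 genes in all. At an unadjusted p under 0.05 there were 22, of which 20 were lower with FAKi, where 23.8% of all genes reached that p, and DESeq2 gave 9 passing OXPHOS genes, where 8.05% of all genes passed with it. The median log2 fold change was -0.35, and -0.02 over all genes. The summed level was 5805, 7271 and 9577 CPM with DMSO and 5827, 6265 and 6495 CPM with FAKi. The DMSO libraries spread over more than the whole FAKi group, with replicate 1 at the FAKi level. Without DMSO day 3 replicate 1, 42 OXPHOS genes passed, 40 of them lower, where 32.7% of all genes passed, and the median was -0.5. Without DMSO day 3 replicate 3, 0 OXPHOS genes passed, where 0.00901% of all genes passed, and the median was -0.1. The genes with the lowest values were COX6A2 at -1.65, ATP5MGL at -1.59 and COX5A at -1.11 (SE 0.31, adjusted p = 0.101). COX5A had 42.2, 87.1 and 118 CPM with DMSO and 38.5, 40.2 and 34.9 CPM with FAKi. UQCRB was at the other end with 0.73 (SE 0.21, adjusted p = 0.105), from 333, 232 and 337 CPM with DMSO and 410, 476 and 593 CPM with FAKi.

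At day 7, 0 of 79 OXPHOS genes passed, where the background was 0.0269%, or 6 of 22299 genes. At an unadjusted p under 0.05 there were 9, where 8.77% of all genes reached that p. With DESeq2 0 passed, where 0.942% of all genes did. The median log2 fold change was 0.06, within a range of summed levels of 6525 to 6931 CPM with DMSO and 6824 to 7001 CPM with FAKi. NDUFA4 had the smallest p, with 47.9, 45.6 and 49.8 CPM with DMSO and 58.6, 71.7 and 75.1 CPM with FAKi (0.51, SE 0.13, adjusted p = 0.314). Without FAKi day 7 replicate 1, which was nearest to a day 14 library, NDUFA4 (0.61, SE 0.11, adjusted p = 0.00493) and COX6B1 (0.48, SE 0.11, adjusted p = 0.0187) passed. That is 2 of 79 OXPHOS genes, where 2.96% of all genes passed, so the share was near the background.

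At day 14 the complexes did not move as wholes, and the share of OXPHOS genes passing (16.5%) was near that of all genes. Those that passed went in both directions. Of 79 genes 13 passed, 8 higher and 5 lower with FAKi, against 12.4% of 23443 genes passing, 6.35% higher and 6.1% lower. Their median log2 fold change was 0.04, and -0.01 over all genes. Higher with FAKi were NDUFA8 and NDUFB2 of complex I, UQCR11 and UQCRQ of complex III, COX8A and NDUFA4 of complex IV, and ATP5MC1 and ATP5MC3 of complex V. Lower were NDUFA5, NDUFA12, UQCRB, COX7A2L and NDUFA4L2. UQCRQ, a small subunit of complex III, had 49.0, 38.2 and 43.0 CPM with DMSO and 60.6, 63.8 and 65.5 CPM with FAKi (0.54, SE 0.11, adjusted p = 0.00265). UQCRB had 1007, 755 and 758 CPM with DMSO, its highest levels of the series, and 572, 568 and 624 CPM with FAKi (-0.52, SE 0.11, adjusted p = 0.00276). These neighbours in complex III thus went opposite ways, each with groups that did not overlap. COX7A2L had 157, 112 and 145 CPM with DMSO and 90.2, 88.96 and 102 CPM with FAKi (-0.56, SE 0.12, adjusted p = 0.00276). Between 5 and 20 genes passed with each library left out, where between 6.1% and 13.7% of all genes did. With all 27 libraries in a single fit 1 passed, where 5.51% of all genes did.

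NDUFA4L2 had the largest change of all members in any comparison. It lies on chr12:57234905-57240692, is a paralogue of the complex IV subunit NDUFA4 (chr7:10931943-10940153) and is known as a gene that hypoxia induces. At day 14 it had 4.88, 4.63 and 4.21 CPM with DMSO and 0.180, 0.209 and 0.235 CPM with FAKi, levels near the floor (-4.45, SE 0.41, adjusted p = 2.1e-07). It was the only member past a log2 fold change of -1 at day 14, the background being 1.04%, and its log2 fold change stayed between -4.57 and -4.35 in all 16 alternative fits of that day. NDUFA4 had 48.8, 32.8 and 40.6 CPM with DMSO and 56.9, 58.4 and 65.5 CPM with FAKi on the same day (0.56, SE 0.13, adjusted p = 0.00588). Per kilobase, NDUFA4L2 was at 19.8% ± 3.93 (SD, n = 3) of the level of NDUFA4 in DMSO at day 14 and at 0.593% ± 0.041 with FAKi. At day 7 the FAKi libraries differed among themselves in NDUFA4L2, with 0.298, 10.1 and 6.79 CPM against 7.57, 9.78 and 9.78 CPM with DMSO. The low value was that of replicate 1, the library nearest to FAKi day 14, and the log2 fold change of -0.66 (SE 0.71) became -0.09 (SE 0.19) without it. At day 21 the level was back at 7.23, 7.51 and 5.82 CPM with FAKi, against 9.82, 11.1 and 6.99 CPM with DMSO (-0.39, SE 0.21, adjusted p = 0.234).

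**Figure D4:**
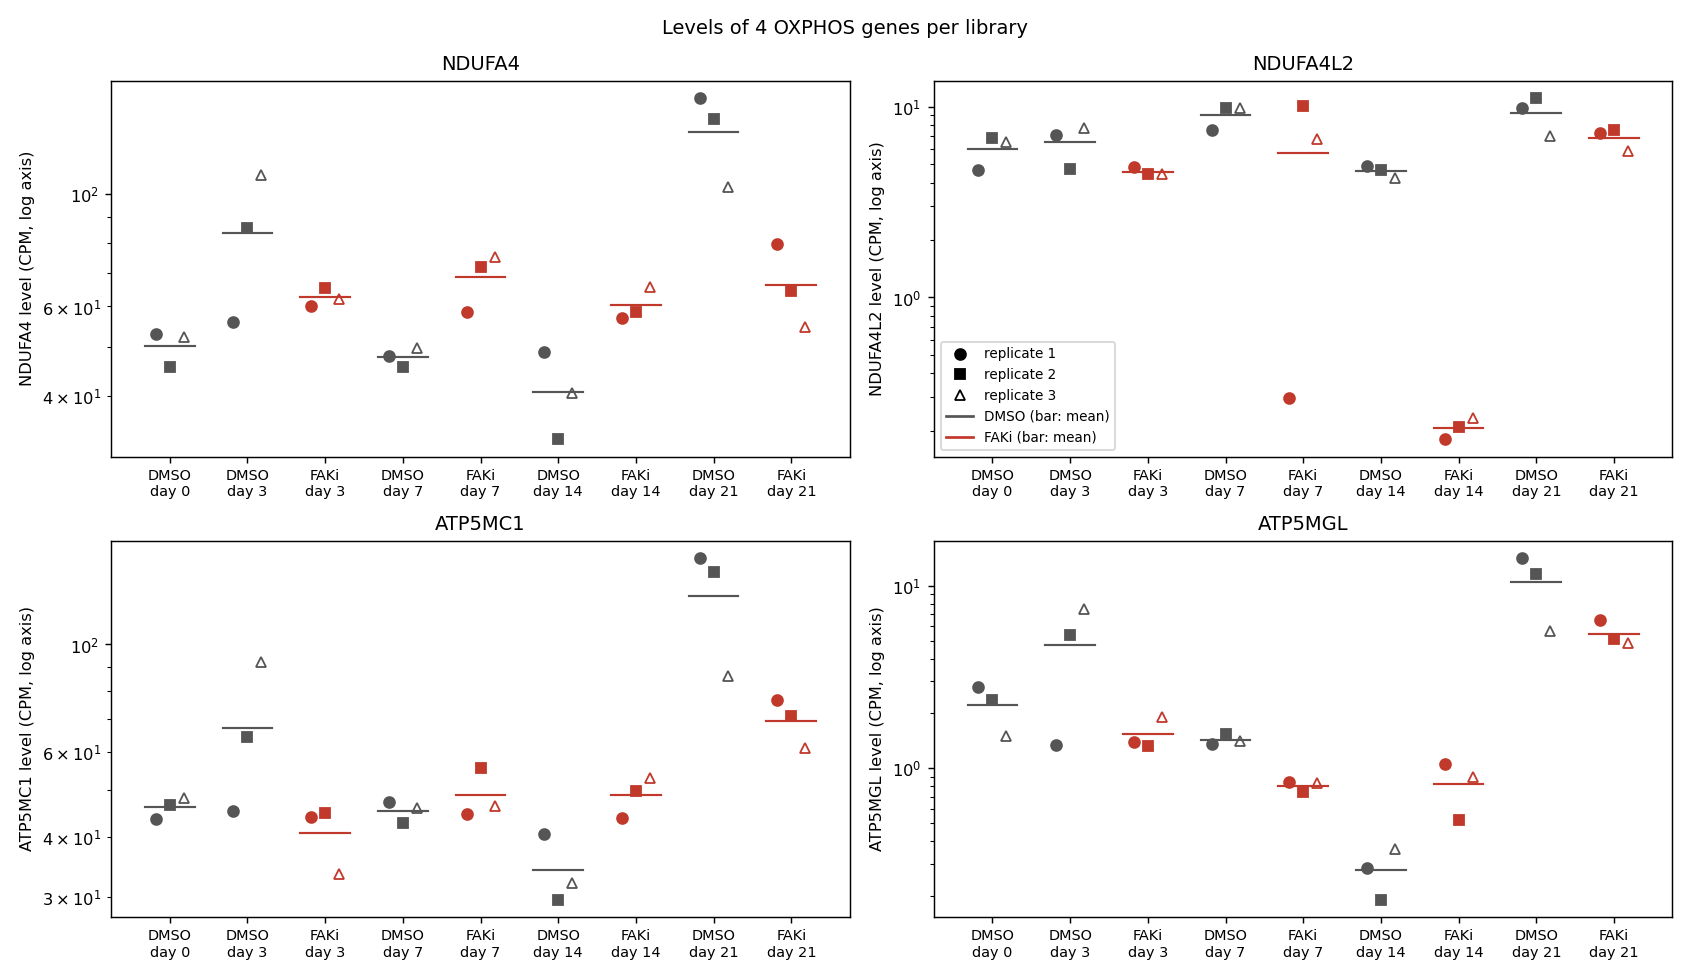
Levels of 4 OXPHOS genes in each library, in TMM-scaled CPM on log axes, with the 9 groups on the x axis and bars at group means. NDUFA4L2 lies between 0.180 and 0.235 CPM in FAKi at day 14 and at 0.298 CPM in FAKi day 7 replicate 1, NDUFA4 and ATP5MC1 are highest in DMSO at day 21, and ATP5MGL runs from 0.190 to 14.2 CPM.

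The c ring of the ATP synthase is built from the product of 3 genes that encode the same mature peptide behind different import sequences. The ratios of their levels are described here and were not tested. The last 228 coding bases of ATP5MC1 (chr17:48892767-48895868), ATP5MC2 (chr12:53665171-53674021) and ATP5MC3 (chr2:175176258-175181710) are shown with the 53 positions that vary among them in capitals. ATP5MC1 and ATP5MC2 differ at 25 of these bases, and ATP5MC3 differs from each of them at 43.
ATP5MC1: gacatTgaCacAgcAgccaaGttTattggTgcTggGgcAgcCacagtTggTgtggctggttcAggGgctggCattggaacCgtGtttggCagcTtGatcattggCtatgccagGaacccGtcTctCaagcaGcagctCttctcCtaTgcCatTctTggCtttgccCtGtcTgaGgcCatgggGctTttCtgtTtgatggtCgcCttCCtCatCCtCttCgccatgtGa
ATP5MC2: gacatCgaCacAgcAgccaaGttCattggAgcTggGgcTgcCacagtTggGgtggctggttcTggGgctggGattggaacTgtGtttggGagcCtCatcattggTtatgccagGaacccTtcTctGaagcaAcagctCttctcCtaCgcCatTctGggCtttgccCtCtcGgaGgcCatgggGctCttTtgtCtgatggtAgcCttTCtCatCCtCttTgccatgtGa
ATP5MC3: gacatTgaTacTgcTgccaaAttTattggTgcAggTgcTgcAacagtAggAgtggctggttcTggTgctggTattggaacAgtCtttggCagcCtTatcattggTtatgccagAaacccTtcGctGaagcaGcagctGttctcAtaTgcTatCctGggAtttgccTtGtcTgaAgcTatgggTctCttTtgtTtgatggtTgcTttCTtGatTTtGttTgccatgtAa
As a percentage of the level of ATP5MC2 per kilobase, ATP5MC3 was 49.6% ± 4.24 (SD, n = 3) at day 0, 64.8% ± 5.94 in DMSO and 81.4% ± 3.29 in FAKi at day 14, and 32.4% ± 1.79 and 26.8% ± 0.116 at day 21. At day 3 ATP5MC3 was 37.9% ± 7.96 in DMSO and 56.3% ± 8.85 in FAKi, and at day 7 it was 44.5% ± 1.58 and 54.7% ± 22.3. ATP5MC1 was at 28.1% ± 3.79 in DMSO and 39.3% ± 3.11 in FAKi at day 14. In all groups but FAKi day 14 its means lay between 21.8% and 28.7%. ATP5MC1 had 40.6, 29.6 and 32.2 CPM with DMSO and 43.8, 49.6 and 52.9 CPM with FAKi on that day (0.51, SE 0.13, adjusted p = 0.0101). ATP5MC2 itself had 115, 91.9 and 119 CPM against 109, 105 and 118 CPM (0.02, SE 0.11).

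Averaged over the 4 days, 25 of 81 OXPHOS genes passed and all 25 were lower with FAKi, where 15.7% of 27897 genes passed and 8.7% passed as lower. Over the 81 genes the median was -0.27. NDUFA4L2 (-1.502, SE 0.26, adjusted p = 0.000424) and COX6A2 (-1.15, SE 0.31, adjusted p = 0.013) were past a log2 fold change of -1, the background being 1.01%. COX6A2 had between 0.0682 and 0.432 CPM in FAKi at day 3 and between 0.623 and 0.878 CPM in DMSO, which is near the floor of the smaller libraries. NDUFA9 (-0.37, SE 0.08), COX7A2L (-0.47, SE 0.11), ATP5PB (-0.39, SE 0.10) and ATP5F1D (-0.46, SE 0.12) followed, with adjusted p-values between 0.00419 and 0.011. Without the day 21 libraries 2 genes passed, 1 in each direction, where 6.96% of all genes passed, and the median was -0.07. Without FAKi day 7 replicate 1 it was 26 genes, against 14.3% of all genes.

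The FAKi effect differed between days for 38 of 81 OXPHOS genes (edgeR F test over the 4 days, adjusted p at most 0.05), against 10.3% of all genes. In these 38 the median log2 fold change went from -0.26 on day 3 to 0.18 on day 7 and 0.15 on day 14, and then to -0.91 on day 21. The 38 were picked by that test, so a change of their medians between days follows from the choice. Over all OXPHOS genes tested on each day the medians were -0.35, 0.06, 0.04 and -0.85, in the same order. NDUFA4 had the smallest adjusted p of 0.0014, with log2 fold changes of -0.40, 0.51, 0.56 and -0.95 at the 4 days in order. Without the day 21 libraries 6 of 80 genes passed, against 2.78% of all genes.

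**Figure D5:**
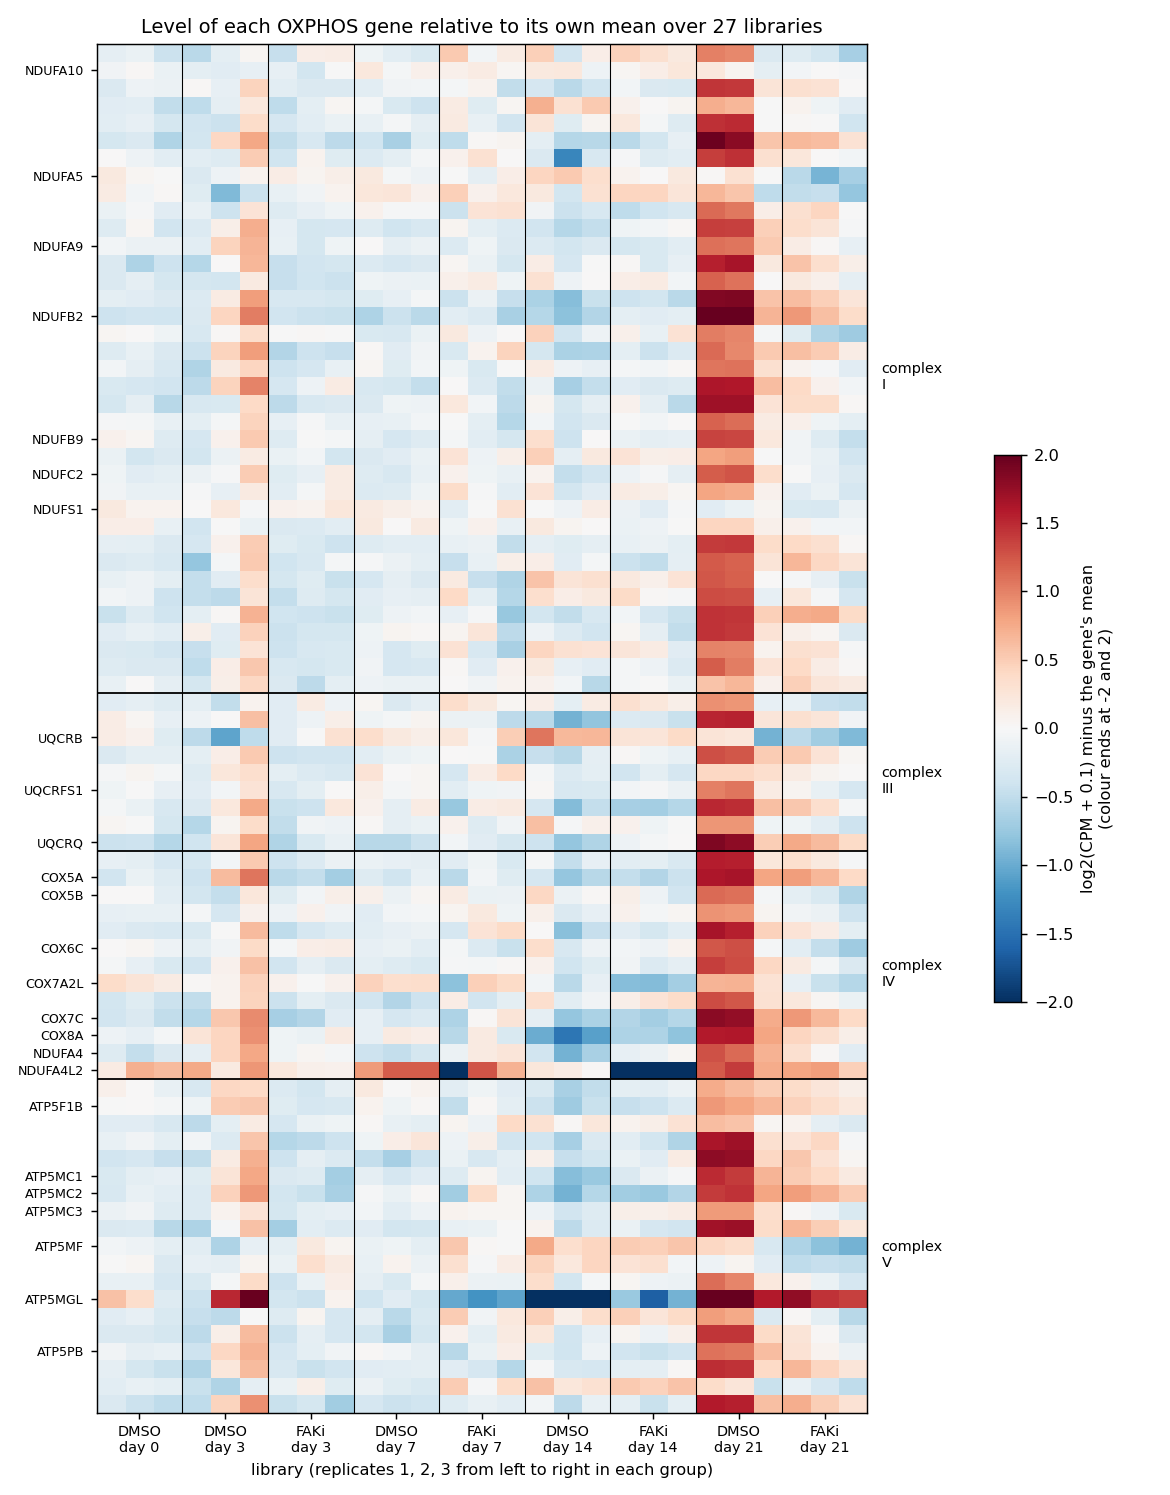
Rows are the 78 OXPHOS genes with a mean of at least 1 CPM, grouped by complex, and columns are the 27 libraries. Colour gives log2(CPM + 0.1) minus the mean of the gene, from blue (lower) to red (higher), and some of the genes described in the text are labelled. The columns of DMSO day 21 replicates 1 and 2 are red in nearly all rows, replicate 3 of that group is paler, and NDUFA4L2 is dark blue in the FAKi libraries of day 14 and in FAKi day 7 replicate 1.

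Other genes of the organelle gave the following counts, to be read against the shares over all genes: 11.6% passing and 6.32% lower at day 21, 44.9% passing and 24.1% higher in DMSO day 21 against day 0, and 6.1% lower at day 14. The day 21 counts hung on single libraries as those of the OXPHOS genes did. Without DMSO day 21 replicate 1 or 2, between 0 and 1 gene of each list passed at day 21, and without replicate 3 the assembly factors had 30 lower, the mitochondrial ribosomal protein genes 67 and the cytosolic ones 83. Over all genes 2.18% passed without replicate 1, 2.0% without replicate 2 and 48.5% without replicate 3. Of 14 genes for complex II and electron carriers 5 were lower with FAKi at day 21 and 10 were higher in DMSO at day 21 than at day 0, among them CYCS, the gene for cytochrome c (-1.20 and 0.76), and SDHB, the iron-sulfur subunit of complex II (-1.08 and 0.89). Of 6 further chain genes that the name rule leaves out, 4 were lower at day 21, such as NDUFAB1, the acyl carrier protein in complex I (-1.06), and SLC25A5, an ADP/ATP carrier (-0.95). Of 46 assembly factors 6 were lower and 1 higher at day 21, with a median of -0.32, and 25 were higher and 1 lower in DMSO day 21 against day 0. Of 78 genes for mitochondrial ribosomal proteins 10 were lower at day 21 and 58 higher in the DMSO comparison, with medians of -0.48 and 0.84. The 85 tested genes for cytosolic ribosomal proteins, which are short as well, had a median of -0.67 at day 21, in a range of -1.18 to -0.20. In edgeR 0 of them passed there. At an unadjusted p under 0.05 there were 44, against 32.6% of all genes, and with DESeq2 25 passed, against 20.6%. In the DMSO comparison their median was 1.39, with 77 higher. Among 13 citrate cycle enzymes 2 were lower at day 21. The 17 regulators of respiratory chain genes ranged from -0.51 to 0.51, with a median of -0.18, and 0 of them passed in edgeR. At an unadjusted p under 0.05 there were 3 regulators, against 32.6% of all genes, and 1 passed in DESeq2, against 20.6%. In DMSO at day 21 against day 0, 5 regulators were higher and 8 lower, with ESRRA at 0.95 and PPARGC1B, a coactivator of it, at -1.25. Within the OXPHOS genes themselves, 3 of 16 catalytic and core subunits were lower at day 21, with a median of -0.57, and 9 of 18 tested isoforms and their common counterparts were, with a median of -0.89. The 13 mRNAs of the mitochondrial chromosome moved against the nuclear genes of the same complexes: all 13 were lower in DMSO at day 21 than at day 0, with a median of -1.74, and at day 21 the median with FAKi was 0.67, with MT-ND5 and MT-ND6 higher. At day 14, 9 of the 13 were lower with FAKi, with a median of -0.41.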

How the data were processed

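RNA of 27 libraries (TruSeq stranded mRNA) was analysed from 1 table of gene counts. Per the labels and methods, the authors trimmed reads with Trim Galore, checked them with FastQC 0.11.8, aligned them to hg38 with STAR 2.5.3a and counted them with HOMER over the exons of 1 transcript per gene of GENCODE 39. The values are raw counts as deposited, whole numbers for 61533 genes, of which 17687 had no count. The strand setting and the handling of reads with several positions were not given in the sources used here. Total counts ran from 12161994 to 43651551 per library, which sets the precision of low values.

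Each comparison was fitted with edgeR 4.0.16 (quasi-likelihood test, TMM, R 4.3.3) on genes with at least 20 counts in total over its libraries, with Benjamini-Hochberg adjustment over all genes tested. A gene passed at an adjusted p of at most 0.05. A second rule also asked for an absolute log2 fold change over 1. The 4 daily comparisons and that of DMSO day 21 with day 0 used 6 libraries each, the mean FAKi effect and its difference between days 24, and the DMSO time course 15. The fit was tested on simulated data. CPM used TMM factors over all 27 libraries. Sequences came from RefSeq promoters (GRCh38.p14) and from GENCODE 44 coding exons read from hg38.

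The members and gene lists were chosen with earlier results of these data known. Genes named are those past both thresholds or with the 5 smallest p-values in a direction, the highest, lowest and undetected ones, those with the largest and smallest SD, and fixed lists of isoforms and core subunits. Of the 47 genes past both thresholds in DMSO day 21 against day 0, those with the smallest p-values are given. UQCRQ at day 21 and ATP5F1D were set beside others of their complex after their values were seen. A result that the rule for named genes would give is not reported here.

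The replicate block was checked by the correlation across 15523 genes of deviations from the group means. At day 21 it was 0.513, 0.197 and 0.71 for replicates 1, 2 and 3, and replicate 2 gave 0.0684 over 21992 genes. Replicate 3 was the library with the lowest summed OXPHOS level in both groups of that day. These values therefore cannot tell whether the numbers pair those libraries. At days 3, 7 and 14 and between the DMSO groups at least 1 replicate was under 0.1. Alternatives were filterByExpr or no filter on counts, scaling by upper quartile or by RLE, DESeq2 1.42.0, a single fit of all libraries, the block, a length and GC correction, library sizes without the mitochondrial chromosome and leaving out each library.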

Additional observations from a re-analysis of the deposited data

Results flagged for a closer look

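The effect of FAKi differed between the 4 days, by an edgeR F test of the difference itself over 24 libraries, for 38 of 81 OXPHOS genes. The 5 smallest adjusted p-values were those of NDUFA4 (0.0014), ATP5MC3 (0.00333), ATP5MF (0.00541), NDUFA4L2 (0.00654) and ATP5MC1 (0.00779). NDUFA4, ATP5MC1 and ATP5MC3 had positive log2 fold changes at days 7 and 14 and negative ones at days 3 and 21. ATP5MF stood at 0.36, 0.34, -0.02 and -0.92 from day 3 to day 21. NDUFA4L2 stood at -0.50, -0.66, -4.45 and -0.39.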

How the results depend on the processing

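Of 39 alternatives, 12 did not leave out a single library. The number of OXPHOS genes passing at day 21, 27 as reported, was 60 without the count filter (13.1% of all genes), 55 with DESeq2 (20.6%), 64 with all 27 libraries in a single fit (19.2%), 68 with the replicate block (29.9%), 63 with the block and the length and GC correction (30.2%), and 76 with the block and replicates 1 and 2 alone (46.8%), an alternative chosen after seeing the data. At day 3 it was 0 as reported, and 23 without the count filter (8.95% of all genes), 9 with DESeq2 (8.05%) and 12 in the single fit of all libraries (9.14%). At day 14 it went from 13 to 1 in that single fit (12.4% and 5.51% of all genes). The mean effect went from 25 to 48 without the count filter (15.7% and 12.2% of all genes). The difference between days went from 38 (10.3% of all genes) to 62, for which the share over all genes is not given here. Without the day 21 libraries, also chosen after seeing the data, the mean effect had 2 genes and the difference between days 6. The DMSO time course went from 73 to 33 without them. Leaving out 1 library at a time gave 0 to 42 genes at day 3, 0 to 2 at day 7, 5 to 20 at day 14, 0 to 76 at day 21, 12 to 55 for the mean effect, 14 to 67 for the difference between days, 43 to 77 for DMSO day 21 against day 0 and 62 to 75 for the DMSO time course. Over all genes the shares in these fits were 0% to 32.7% at day 3 and 0% to 2.96% at day 7. They were 6.1% to 13.7% at day 14 and 0.229% to 48.5% at day 21. For the mean effect, 51 genes passed without DMSO day 3 replicate 1, where 22.6% of all genes did. The other shares for the mean effect, the difference between days and the 2 DMSO comparisons are not given here. Those ranges therefore cannot be read as particular to the OXPHOS genes. The 42 genes at day 3 came without DMSO day 3 replicate 1, the 43 without DMSO day 0 replicate 3, and the 55, 67 and 77 without DMSO day 21 replicate 3. The 12 came without DMSO day 3 replicate 3, and the 14 without DMSO day 21 replicate 1 or FAKi day 21 replicate 3. The cause was not tested, except that fits without a library hold fewer samples. The median at day 21 stayed between -1.09 and -0.71 and that of DMSO day 21 against day 0 between 0.95 and 1.38 with each library left out. The block changed no other count by over 1.5 times. For genes named as passing, 796 of 914 combinations of gene and alternative kept the call and 118 lost it. The call was lost in 84 of 289 at day 21, 23 of 160 at day 14 and 8 of 210 for the mean effect. It was lost in 0 of 80 for DMSO day 21 against day 0. The difference between days, which has no direction, kept 172 of 175. In the comparisons with a direction, 0 turned it. At days 3, 7 and 14, libraries with the same replicate number did not deviate together throughout. The name of each count column also carries an NGS number equal to the replicate number. The labels do not say what it stands for.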

Other observations

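After the values of NDUFA4L2 were seen, 15 genes known to be induced by hypoxia were listed, so their counts are a description. At day 14, 13 of them were tested, with a median log2 fold change of -0.03, and 5 passed in edgeR, where 12.4% of all genes passed. ALDOC (0.65), LDHA (0.41) and PGK1 (0.38), enzymes of glycolysis, were higher with FAKi. VEGFA, a growth factor for vessels, was lower by 1.64 on the log2 scale (-1.64, adjusted p = 9.4e-10), and PDK1, a kinase that holds back pyruvate dehydrogenase, was at -0.70 (adjusted p = 0.0121). VEGFA had 108, 113 and 109 CPM with DMSO and 37.4, 31.8 and 36.6 CPM with FAKi. In FAKi day 7 it had 40.6 CPM in replicate 1 and 147 and 133 CPM in replicates 2 and 3, so the library with the low NDUFA4L2 level was also the low one for VEGFA. PDK1 had 12.2, 16.2 and 11.4 CPM with DMSO and 7.46, 7.76 and 9.32 CPM with FAKi at day 14, and in FAKi at day 7 it was lowest in replicate 1, with 6.55 CPM. At day 21 VEGFA was on the other side, with 76.5, 64.7 and 106 CPM with DMSO and 138, 150 and 167 CPM with FAKi (0.93, adjusted p = 0.0257). Of the 12 tested at day 21 4 passed, against 11.6% of all genes. VEGFA and KDM3A (0.72) were higher, and ALDOC (-0.64) and P4HA1 (-0.56) lower. On that day NDUFA4L2 was at -0.39 (adjusted p = 0.234).

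ATP5MGL, an intronless copy of ATP5MG, which encodes a membrane subunit of the ATP synthase, had ratios to ATP5MG that spread widely over the groups. Its level per kilobase was 1.8% ± 0.504 (SD, n = 3) of that of ATP5MG in DMSO at day 14 and 37.3% ± 5.22 in DMSO at day 21. With FAKi it was 5.52% ± 1.66 at day 14 and 38.4% ± 1.86 at day 21. Reads of both genes may be shared, and this was not tested.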
